A study of Homo sapiens with 6 samples.

Results

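The 10 genes described here encode proteins that ZEB1 works with at promoters: the corepressors CTBP1, CTBP2, HDAC1, HDAC2, KDM1A, RCOR1 and SIRT1, the chromatin remodeler SMARCA4, and the acetyltransferases EP300 and KAT2B. They were chosen by name, as the rows of the count tables whose gene name equals a member, and all 10 were found among the 32029 genes listed. The cells were SW480, an established human colorectal adenocarcinoma line. Total RNA was sequenced in bulk 48 h after transfection with siNC, a control small interfering RNA (labelled WT), or with siZEB1, an siRNA against ZEB1 (labelled ZEB1 knockdown), in 3 samples each, which the study's methods call biological replicates. The siRNA lowers the messenger RNA for a time and leaves the gene intact, and no stable clone was made.

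ZEB1 is a zinc finger and homeodomain repressor that drives the epithelial to mesenchymal transition, and it binds E-boxes in genes such as CDH1, which encodes E-cadherin. It represses by bringing cofactors to these sites: CtBP proteins serve as a platform that binds deacetylases and a histone demethylase, and class I deacetylases act within the NuRD, CoREST and SIN3 complexes. With acetyltransferases such as EP300 and KAT2B, ZEB1 can instead activate transcription, and SMARCA4 and SIRT1 have been described as further partners in repression. The comparison of siZEB1 with siNC asks whether the messenger RNA of these partners, and of the complexes they belong to, differed after ZEB1 was depleted.

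Library totals lay between 19040636 and 22357633 counts, and no library was a copy of another, since the chi-square per degree of freedom between same-group libraries was 2.27 to 9.58. Levels are in CPM, the counts of a gene relative to the library total, after scaling by edgeR's trimmed mean of M-values (TMM). ZEB1 itself was at 58.6, 57.0 and 47.1 CPM in siNC 1 to 3 and at 7.20, 6.86 and 8.46 CPM in siZEB1 1 to 3, a log2 fold change of -2.85 (SE 0.108). CDH1 was higher in siZEB1 by 4.01 on the log2 scale. KRT8 and KRT18, keratins of simple epithelium, were abundant in each library, whereas LGALS4 (4 to 9 counts) and CEACAM5 (0 to 1 count) of the same 8 epithelial and intestinal markers were close to absent. The remaining 4 differed between the group means: EPCAM was at 54.7 CPM in siNC and 453.6 CPM in siZEB1, KRT19 at 72.3 and 223.0 CPM, VIL1 at 4.08 and 20.7 CPM, and CDX2 at 102.5 and 41.8 CPM. Their sum over all 8 was 4813 to 5437 CPM in siNC and 5329 to 6002 CPM in siZEB1, and the part of these marker differences in the members' values was not tested. Summed markers of the 9 blood, endothelial, stromal and liver genes listed stayed between 14.8 and 17.2 CPM in the 6 libraries, and PTPRC and CDH5 among them are not listed in the tables. In bulk RNA a lower level cannot be told apart from fewer cells that express the gene.

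Among the 10 members, HDAC1 and HDAC2 rose after ZEB1 knockdown, and CTBP1, KDM1A, EP300, KAT2B and SIRT1 fell. CTBP2, RCOR1 and SMARCA4 did not pass the test. All 10 members passed the low-count filter. The test was edgeR's quasi-likelihood test with Benjamini-Hochberg adjustment over all 14996 genes tested, and "called" means an adjusted p under 0.05. Of all genes tested, 40.2% were called, 19% as higher and 21.2% as lower, and the members' 2 higher and 5 lower calls are to be read against these shares. The median log2 fold change was -0.16 over the members and -0.0055 over all genes tested. The siNC and siZEB1 samples did not overlap for 8 members (2 higher, 6 lower), against 49.5% of all genes (24.3% higher, 25.3% lower).

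**Figure D1:**
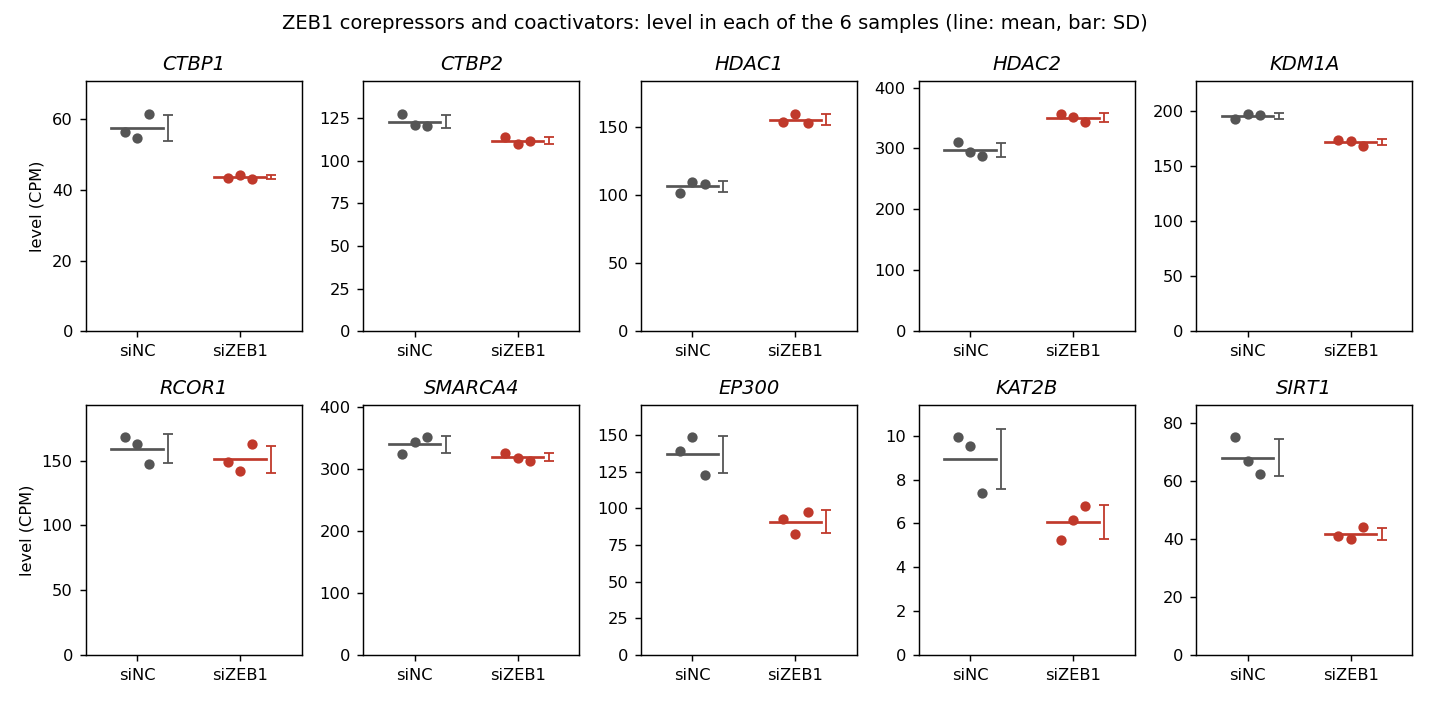
Level of each member (CPM, vertical axes from 0) in the 3 siNC (grey) and the 3 siZEB1 (red) samples, with each point a sample, the line the group mean and the bar the SD. The groups are apart for 8 members and overlap for RCOR1 and SMARCA4.

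The sizes of these changes were moderate. No member rose by more than 1.5-fold, and 2 members, EP300 and SIRT1, fell by more than 1.5-fold. Both passed with an unadjusted p under 0.05 and also with the p of 0.001 that the study's methods set. Over all genes, 7.21% were higher and 9.35% lower by more than 1.5-fold at an unadjusted p under 0.05, and 4.52% were higher and 6.7% lower at 0.001. SIRT1 fell the furthest, and 7.38% of all genes tested had a log2 fold change as low or lower. HDAC1 rose the furthest, and 9.44% of genes had a log2 fold change as high or higher.

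**Figure D2:**
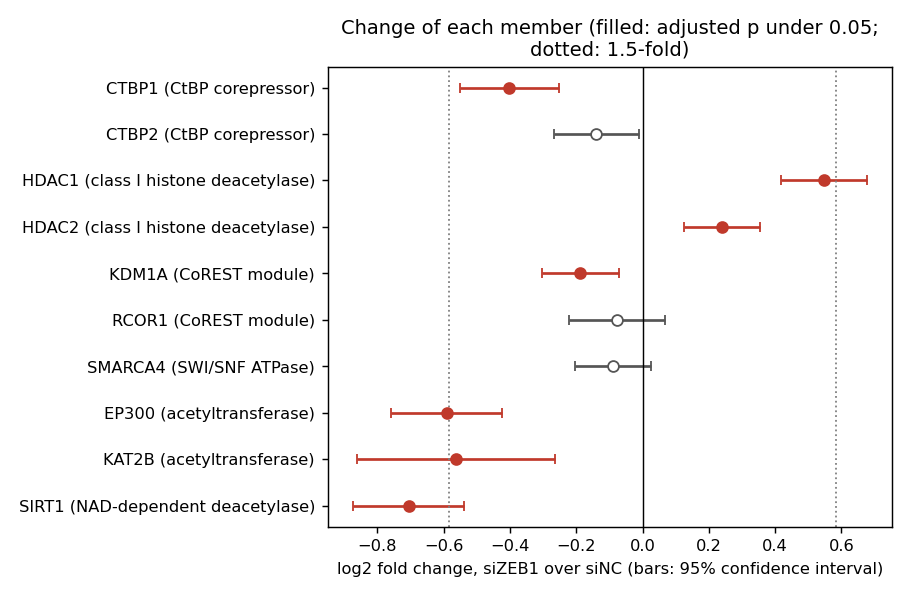
Log2 fold change of siZEB1 over siNC for each member with its 95% confidence interval. Filled points have an adjusted p under 0.05, and dotted lines mark a 1.5-fold change. HDAC1 and HDAC2 lie right of 0, CTBP1, KDM1A, EP300, KAT2B and SIRT1 lie left of it, and the intervals of RCOR1 and SMARCA4 cross 0.

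The CtBP proteins are the corepressors through which ZEB1 binds much of its repressive machinery, and they also bind NADH. CTBP1 stood at 56.2, 54.8 and 61.6 CPM in siNC 1 to 3 and at 43.4, 44.2 and 43.0 CPM in siZEB1 1 to 3. Each siZEB1 sample lay below the lowest siNC sample. CTBP1 fell by 0.40 on the log2 scale (SE 0.071, edgeR adjusted p = 0.000231), a level lower by 24.3% (percent change -24.3%).

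CTBP2, its close paralog, was at 127.6, 121.0 and 120.3 CPM in siNC 1 to 3 and at 113.8, 109.6 and 111.6 CPM in siZEB1 1 to 3. The groups did not overlap here either, but the difference did not pass (log2 fold change -0.14, 95% confidence interval -0.27 to -0.01, edgeR adjusted p = 0.0783). Some of the exon bases of both genes lie opposite other genes in GENCODE 29: 13.3% for CTBP1, under CTBP1-AS and CTBP1-DT, and 34.7% for CTBP2, under AL731571.1 and ZRANB1. Whether the counting used the strand is not given in the sources used here, so reads of these overlaps cannot be assigned. CTBP1-DT was called lower (log2 fold change -0.32), and ZRANB1 was called higher (0.38). The part of these neighbours in the CtBP values was not tested. Each of the other members shares at most 0.856% of its exon bases with genes on the opposite strand. The CTBP2 pseudogenes CTBP2P4, CTBP2P7 and CTBP2P8 are counted apart, at 48 counts or fewer in a library.

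Of the member promoter windows searched, only 1 holds the E-box CACCTG, the form of the site most often tied to ZEB1. It is 1 of 3 windows of CTBP1. The promoters came from RefSeq on GRCh38.p14, from 250 bases before to 50 bases after each annotated start, and they gave 17 windows for the 10 members. Each was searched on both strands for CACCTG and for the shorter core CACCT, which every CACCTG contains. The core was in 7 of the 17 windows (41.2%), against 51.6% of 35116 promoter windows over all genes, and CACCTG was in 1 window against 20.6%. The CTBP1 window is at chr4:1250306-1250605 on the minus strand and is shown because it is the single match. Capitals mark the core, and the second of its pair of cores continues into CACCTG.
CTBP1: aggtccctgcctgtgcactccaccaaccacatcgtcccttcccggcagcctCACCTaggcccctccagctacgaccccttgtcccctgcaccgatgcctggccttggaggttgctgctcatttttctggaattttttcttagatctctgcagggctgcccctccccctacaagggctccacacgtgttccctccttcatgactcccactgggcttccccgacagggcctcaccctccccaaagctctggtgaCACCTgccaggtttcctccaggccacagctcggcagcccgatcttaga

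HDAC1 and HDAC2 are the class I deacetylases that remove acetyl groups from histone tails within NuRD, CoREST and SIN3. HDAC1 was at 101.3, 109.4 and 107.9 CPM in siNC 1 to 3 and at 153.5, 159.6 and 152.7 CPM in siZEB1 1 to 3. The lowest siZEB1 sample stood well above the highest siNC sample. HDAC1 rose by 0.55 on the log2 scale (SE 0.061, edgeR adjusted p = 1.93e-06), or by 46.2%.

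HDAC2 had the higher CPM and moved less, although HDAC1 was higher per kilobase of exon (26.8 against 19.2 CPM in siNC). The HDAC2 level was 309.8, 294.1 and 287.2 CPM in siNC 1 to 3 and 357.1, 351.6 and 343.7 CPM in siZEB1 1 to 3. Again no siZEB1 sample reached down to the siNC range, and HDAC2 rose by 0.24 on the log2 scale (SE 0.054, edgeR adjusted p = 0.00193), or by 18.1%. Each of these genes has a single RefSeq promoter window, and they are shown because these were the members that rose. The HDAC1 window is at chr1:32291833-32292132 on the plus strand and holds the core once in its reverse form, AGGTG. The HDAC2 window is at chr6:113971099-113971398 on the minus strand and holds 3 cores. Capitals mark CACCT or AGGTG.
HDAC1: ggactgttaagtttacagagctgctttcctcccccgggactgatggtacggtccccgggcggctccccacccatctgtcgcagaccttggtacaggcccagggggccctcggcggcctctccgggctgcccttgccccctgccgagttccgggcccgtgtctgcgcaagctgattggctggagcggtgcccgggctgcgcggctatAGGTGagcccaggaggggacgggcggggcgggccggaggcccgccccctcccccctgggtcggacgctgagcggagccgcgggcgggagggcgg
HDAC2: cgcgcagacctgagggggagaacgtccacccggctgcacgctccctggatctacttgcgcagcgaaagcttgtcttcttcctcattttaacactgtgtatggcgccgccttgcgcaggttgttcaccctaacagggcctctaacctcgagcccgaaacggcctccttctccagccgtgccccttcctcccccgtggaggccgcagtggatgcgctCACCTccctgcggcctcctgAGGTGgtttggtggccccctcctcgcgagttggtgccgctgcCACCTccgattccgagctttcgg

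These windows are a description of letters and not of binding, since ZEB1 occupancy was not measured in these files. The core was also in windows of CTBP1, EP300 and KDM1A, which fell, and of CTBP2, which was not called. It was in none of the windows of KAT2B, SIRT1, RCOR1 and SMARCA4.

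KDM1A and RCOR1 form the CoREST module, in which the demethylase KDM1A removes methyl groups from histone H3 and RCOR1 is the scaffold. KDM1A was at 192.6, 197.3 and 195.8 CPM in siNC 1 to 3 and at 173.1, 173.0 and 168.4 CPM in siZEB1 1 to 3. Both groups were tight and apart, and KDM1A fell by 0.19 on the log2 scale (SE 0.056, edgeR adjusted p = 0.0125). The call was lost without siNC 2, where the adjusted p was 0.0556 at a log2 fold change of -0.18. RCOR1 was at 168.1, 163.0 and 147.2 CPM in siNC 1 to 3 and at 148.7, 142.0 and 162.8 CPM in siZEB1 1 to 3. Its groups overlapped, with siNC 3, siZEB1 1 and siZEB1 3 inside the other group's range, and its log2 fold change was -0.08 (95% confidence interval -0.22 to 0.07, edgeR adjusted p = 0.402).

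SMARCA4 is the ATPase that powers SWI/SNF remodeling complexes. It was at 325.1, 343.2 and 351.2 CPM in siNC 1 to 3 and at 326.0, 318.5 and 313.3 CPM in siZEB1 1 to 3. siZEB1 1 lay just above siNC 1, so the groups overlapped. The log2 fold change was -0.09 with a 95% confidence interval of -0.20 to 0.02 (edgeR adjusted p = 0.201), so a fall larger than 0.20 on this scale lay outside the interval.

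EP300 is a histone acetyltransferase and a broad coactivator. It was at 139.0, 148.4 and 123.0 CPM in siNC 1 to 3 and at 92.5, 82.4 and 97.8 CPM in siZEB1 1 to 3. All 3 siZEB1 samples lay below all 3 siNC samples, although siNC 3 stood lower than siNC 1 and 2. EP300 fell by 0.59 on the log2 scale (SE 0.079, edgeR adjusted p = 1.49e-05), which is a percent change of -33.6%. Its promoter window at chr22:41092342-41092641 on the plus strand is shown because EP300 had the largest fall among members with a core, again as AGGTG in capitals.
EP300: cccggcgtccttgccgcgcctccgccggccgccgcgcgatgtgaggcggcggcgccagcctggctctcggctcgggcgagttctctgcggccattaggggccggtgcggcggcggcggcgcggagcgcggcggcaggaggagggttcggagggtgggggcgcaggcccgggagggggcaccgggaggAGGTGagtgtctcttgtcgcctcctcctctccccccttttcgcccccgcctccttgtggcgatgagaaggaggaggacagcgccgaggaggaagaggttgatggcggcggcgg

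KAT2B, also known as PCAF, is the acetyltransferase of a SAGA-type complex that was described as a partner of ZEB1 in activation. It was the least abundant member, with 99 to 213 counts in a library. The level was 9.92, 9.51 and 7.37 CPM in siNC 1 to 3 and 5.24, 6.14 and 6.79 CPM in siZEB1 1 to 3. The gap between siNC 3 and siZEB1 3 was small beside the spread within each group. KAT2B fell by 0.56 on the log2 scale (SE 0.142, edgeR adjusted p = 0.0042), with a 95% confidence interval from -0.86 to -0.26.

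SIRT1 is a deacetylase of a separate class that uses NAD as a cosubstrate and acts on histones and on transcription factors. Its level was 75.2, 66.9 and 62.4 CPM in siNC 1 to 3 and 41.0, 40.1 and 44.3 CPM in siZEB1 1 to 3. The siZEB1 samples lay close together and well below the lowest siNC sample. SIRT1 fell by 0.71 on the log2 scale (SE 0.079, edgeR adjusted p = 2.08e-06), a percent change of -38.7%. The direction was thus opposite to that of HDAC1 and HDAC2. The SIRT1 window at chr10:67884406-67884705 on the plus strand is shown as the member with the largest change. It holds no core, and so has no capitals, but it holds 2 copies of a different E-box, cacgtg. At least 1 copy of cacgtg was in 7.26% of all promoter windows, and the CTBP1 window shown above also holds 1.
SIRT1: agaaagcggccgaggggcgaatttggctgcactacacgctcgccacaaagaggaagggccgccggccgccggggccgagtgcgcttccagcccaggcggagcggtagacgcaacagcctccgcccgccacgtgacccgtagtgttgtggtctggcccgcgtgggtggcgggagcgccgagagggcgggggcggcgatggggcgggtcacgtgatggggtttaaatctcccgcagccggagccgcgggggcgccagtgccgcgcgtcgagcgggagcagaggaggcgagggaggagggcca

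**Figure D3:**
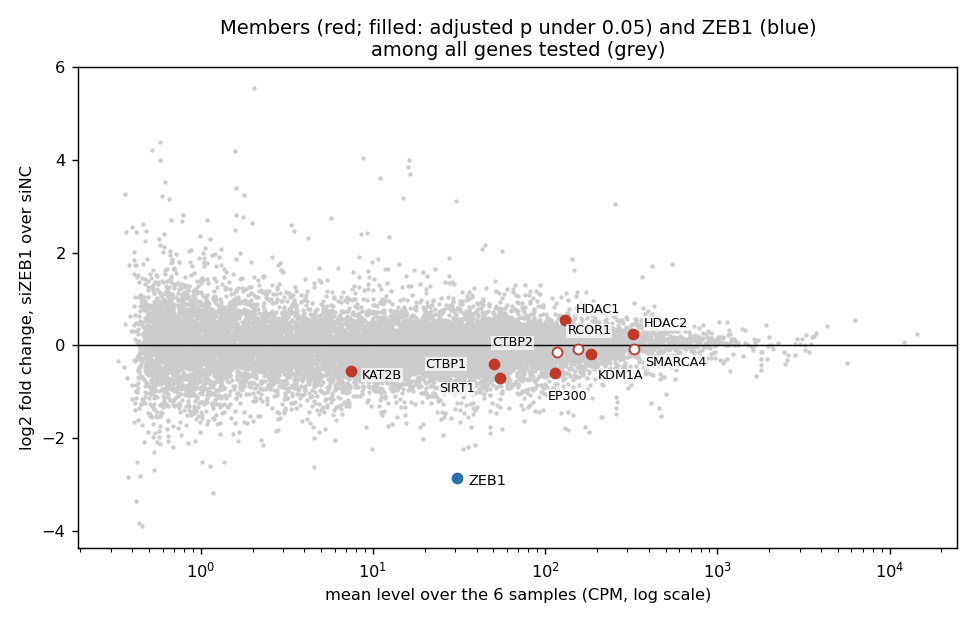
Log2 fold change of siZEB1 over siNC against mean level (CPM, log scale) for all 14996 genes tested (grey), the 10 members (red, filled where the adjusted p is under 0.05) and ZEB1 (blue). The members lie within the range of the grey points at their level, from KAT2B as the lowest to SMARCA4 and HDAC2 as the highest.

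Levels of different genes were compared as CPM per kilobase of exon, on the exon lengths of GENCODE 29. A length covers the merged exons of all annotated transcripts, such as 15461 bases for HDAC2 and 3963 bases for HDAC1. The order and the shares per kilobase therefore depend on that annotation. In siNC the order was KDM1A (35.9), HDAC1 (26.8), RCOR1 (25.7), SMARCA4 (21.5), HDAC2 (19.2), SIRT1 (14.98), CTBP2 (11.2), EP300 (10.9), CTBP1 (6.88) and KAT2B (1.59). The ranges of HDAC1 and RCOR1 overlapped, as did those of CTBP2 and EP300, and the other neighbours in the order were apart. In siZEB1 HDAC1 came first at 39.2 and KDM1A second at 31.5. RCOR1 (24.4) and HDAC2 (22.7) overlapped there, and SMARCA4 (20.2), CTBP2 (10.2), SIRT1 (9.19), EP300 (7.27), CTBP1 (5.21) and KAT2B (1.08) followed in that order without overlap. SIRT1 stood above CTBP2 in siNC and below it in siZEB1.

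Several members have a paralog that can take the same place in a complex, so the log2 ratio of their counts was taken within each library, where it does not depend on library scaling. With 3 samples against 3 the exact permutation test, two-sided, cannot give a p under 0.1, and p-values were adjusted over the 6 pairs compared. The EP300 to CREBBP ratio was -0.17, -0.18 and -0.28 in siNC 1 to 3 and -0.92, -0.95 and -0.92 in siZEB1 1 to 3, a difference of -0.72 (exact permutation p = 0.1, adjusted 0.2). The groups stood far apart relative to their spread. CREBBP, the closest relative of EP300, was not itself called, at 158.0 ± 9.79 CPM in siNC and 173.3 ± 13.1 CPM in siZEB1 (SD, n = 3 each), with a 95% confidence interval of its log2 fold change from -0.01 to 0.28. As a share of the pair per kilobase, EP300 held 51.7% ± 1.06 in siNC and 39.4% ± 0.313 in siZEB1 (SD, n = 3 each).

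The HDAC1 to HDAC2 ratio was -1.61, -1.43 and -1.41 in siNC 1 to 3 and -1.22, -1.14 and -1.17 in siZEB1 1 to 3. The difference was 0.31 with no overlap (exact permutation p = 0.1, adjusted 0.2), so the 2 deacetylases did not rise by the same factor in these libraries. HDAC1 held 58.2% ± 1.88 of the pair per kilobase in siNC and 63.3% ± 0.638 in siZEB1 (SD, n = 3 each). For CTBP1 to CTBP2 the mean ratio was -1.10 in siNC and -1.36 in siZEB1, a difference of -0.26, also without overlap (exact permutation p = 0.1, adjusted 0.2). CTBP1 held 38.0% ± 1.88 of the pair in siNC and 33.8% ± 0.640 in siZEB1.

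The other 3 ratios overlapped between the groups. KAT2B to KAT2A differed by -0.59 (exact permutation p = 0.2, adjusted 0.24), and KAT2A stood at 82.2 and 84.3 CPM in siNC and siZEB1. RCOR1 to RCOR3 differed by -0.16 (exact permutation p = 0.2, adjusted 0.24). SMARCA4 to SMARCA2, the paired SWI/SNF ATPases, differed by -0.02 (exact permutation p = 0.9), and SMARCA4 held 89.0% of the pair per kilobase in siNC and 88.9% in siZEB1. RCOR3 and SMARCA2 were not called by edgeR (95% confidence intervals -0.10 to 0.27 and -0.24 to 0.09).

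**Figure D4:**
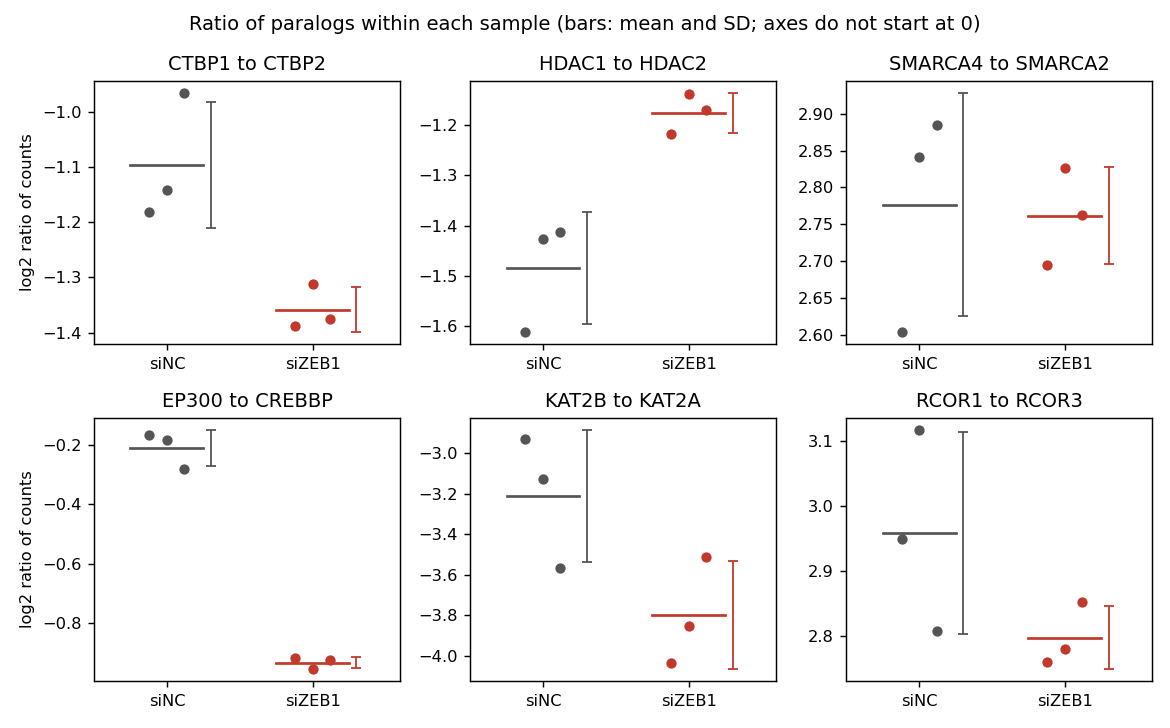
Log2 ratio of the counts of each member to its paralog within each sample, in siNC (grey) and siZEB1 (red), with the mean as a line and the SD as a bar. The groups are apart for CTBP1 to CTBP2, HDAC1 to HDAC2 and EP300 to CREBBP and overlap for the other 3 pairs.

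The members sit in larger assemblies, and the remaining subunits were read from lists of complex members. NuRD joins the deacetylases to a CHD remodeler, an MTA scaffold and MBD proteins. Of its 15 genes tested, HDAC1 and HDAC2 included, 6 rose and 1 fell (40% and 6.67%, against 19% and 21.2% of all genes), with a median log2 fold change of 0.12. Without HDAC1 and HDAC2, 4 of 13 rose. The histone chaperone RBBP4 rose from 130.3 ± 8.21 to 174.4 ± 6.54 CPM (log2 fold change 0.42, SE 0.064), and the structural subunit GATAD2A from 225.4 ± 3.93 to 304.5 ± 9.60 CPM (0.43, SE 0.055; SD, n = 3 each). Of the RBBP4 exon bases 18.0% lie opposite SYNC, and reads of that overlap cannot be assigned. CHD4, the main ATPase of NuRD, rose by 0.43 on the log2 scale, from 18.6 to 25.03 CPM, and 46.9% of its exon bases are shared with AC006064.6 on the same strand, so its counts are uncertain. CHD3, an alternative ATPase, fell by 0.21, a call that was lost without siNC 2, siZEB1 1 or siZEB1 2 (adjusted p of 0.0534, 0.0579 and 0.0595), which left no NuRD gene called lower.

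The MTA scaffolds were followed because the study works with them by name. MTA1 was at 68.1, 72.6 and 78.4 CPM in siNC 1 to 3 and at 81.2, 79.3 and 79.2 CPM in siZEB1 1 to 3. The groups did not overlap, but the difference was not called (log2 fold change 0.13, 95% confidence interval -0.01 to 0.28, edgeR adjusted p = 0.144), and it was called without siNC 3 (adjusted p = 0.0378). MTA2 was the most abundant of the 3 and held 83.8% of their summed level per kilobase in siNC and 82.8% in siZEB1. MTA2 (log2 fold change -0.05, 95% confidence interval -0.18 to 0.08) and MTA3 (-0.15, -0.30 to -0.00058) were not called.

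Of the 12 CoREST genes, HDAC1, HDAC2 and GSE1 rose and 2 fell (25% and 16.7%), shares close to those of all genes (19% and 21.2%), with a median of 0.03. Apart from KDM1A the one that fell was RCOR2, a scaffold related to RCOR1 and scarce here, at 1.65 ± 0.327 CPM in siNC and 0.838 ± 0.185 CPM in siZEB1 (SD, n = 3 each, log2 fold change -0.97). The RCOR2 call was lost without siNC 3 or siZEB1 1 (adjusted p of 0.0629 and 0.0621), and 1 gene was then called lower, as it was without siNC 2. GSE1, a protein found with CoREST, rose from 35.8 ± 3.45 to 46.3 ± 1.83 CPM.

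SIN3 complexes use the same deacetylases and RBBP chaperones. Here 9 of 17 genes rose and none fell (52.9% and 0%, against 19% and 21.2% of all genes), with a median of 0.17, and without HDAC1 and HDAC2 it was 7 of 15. DESeq2 also gave 9 higher and 0 lower. An unadjusted p under 0.05 in edgeR, which keeps every gene already called, added none. With 1 library left out 7 or 8 genes were called higher. SAP30L rose the most (26.9 ± 3.09 to 46.7 ± 0.298 CPM, log2 fold change 0.79), and SAP18 rose by 0.43. ING1 rose by 0.30, but not without siNC 2 or siZEB1 2 (adjusted p of 0.111 and 0.0542). SIN3A, a scaffold of the complex, was called lower without siNC 3. HDAC1, HDAC2, RBBP4 and RBBP7 belong to both the NuRD and the SIN3 lists and account for 4 of the calls in each, so the counts are not independent.

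SWI/SNF genes other than SMARCA4 moved in both directions. Of 26 genes tested, SMARCA4 included, 4 rose and 5 fell (15.4% and 19.2%), no larger shares than among all genes (19% and 21.2%). The median was -0.07. BCL7A (10.7 ± 0.714 to 22.8 ± 0.276 CPM, log2 fold change 1.09) and BCL7B (50.8 ± 1.72 to 95.6 ± 4.78 CPM, 0.91) rose most, and both are accessory subunits. The core subunit SMARCC1 rose by 0.26. BICRA rose by 0.86 and ARID2 fell by 0.38. The others called lower were ARID1A, BRD9, PHF10 and DPF2 (-0.31 to -0.16). Without siNC 1, siZEB1 1 or siZEB1 2 the count of genes called lower was 3.

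**Figure D5:**
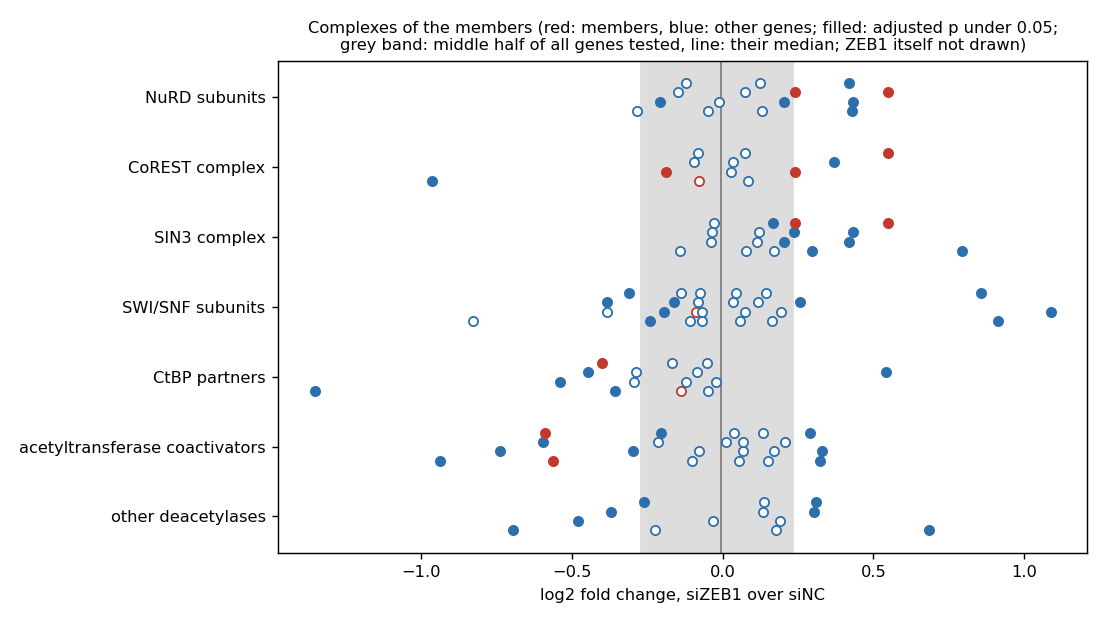
Log2 fold change of siZEB1 over siNC for the genes of 7 lists, with members in red, other genes in blue, and filled points where the adjusted p is under 0.05. The grey band is the interquartile range of all genes tested and the grey line their median, and ZEB1 itself is not drawn. SIN3 genes called lie right of 0, and CtBP partners called lie left of 0 with the exception of LCOR.

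Of 16 genes tested on the list of CtBP proteins and their partners, 6 fell and 1 rose (37.5% and 6.25%, against 21.2% and 19% of all genes), with a median of -0.23, and ZEB2 and KLF8 were below the filter. The 6 include CTBP1 and ZEB1, whose fall the siRNA sets. Without ZEB1, CTBP1 and CTBP2, 4 of 13 fell and 1 rose. WIZ, a zinc finger protein that links CtBP to histone methyltransferases, fell from 88.0 ± 6.29 to 34.5 ± 3.01 CPM (log2 fold change -1.35, SE 0.080, edgeR adjusted p = 1.15e-09). The repressor KLF3 fell by 0.54, and the ligand-dependent corepressor LCOR rose by 0.54.

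Among 22 genes of the acetyltransferase coactivators, EP300 and KAT2B included, 7 fell and 3 rose (31.8% and 13.6%, against 21.2% and 19% of all genes), with a median of 0.02. Without the members EP300 and KAT2B, 5 of 20 fell (25%). On the whole list the count called lower was 5 without siNC 1, siNC 2, siZEB1 1 or siZEB1 2. It was 9 without siNC 3, and DESeq2 gave 6 lower and 2 higher. KAT6B (39.8 ± 3.71 to 20.8 ± 2.60 CPM) and KAT7 (61.2 ± 2.65 to 36.7 ± 1.59 CPM) are acetyltransferases of the MYST family and fell by 0.94 and 0.74. TRRAP, the large scaffold that SAGA-type and TIP60 complexes share, fell by 0.60 from 215.5 ± 16.2 to 142.5 ± 7.52 CPM, close to the fall of EP300. TADA3, an adaptor in the complexes of KAT2A and KAT2B, rose by 0.33, and TADA2A and the acetyltransferase KAT8 rose by 0.29 and 0.32. With 1 library left out the count called higher was 2, except without siNC 3, where it was 3. TADA3 kept its call in each of the 12 alternatives run. However, 19.7% of its exon bases lie opposite ARPC4 and OGG1, and reads of that overlap cannot be assigned.

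Of the deacetylases outside the members, 13 were tested, 3 rose and 4 fell (23.1% and 30.8%, against 19% and 21.2% of all genes), with a median of 0.13, and HDAC9 and HDAC10 were below the filter. In the sirtuin family SIRT2 fell by 0.37 and SIRT3 by 0.48, while SIRT5 rose by 0.69 (5.76 ± 0.593 to 9.26 ± 0.449 CPM). SIRT4, SIRT6 and SIRT7 were not called (log2 fold changes of -0.22, 0.14 and -0.03). HDAC11 fell by 0.70 at a low level, from 5.56 ± 0.221 to 3.43 ± 0.577 CPM. Of the class II deacetylases HDAC6 and HDAC7 rose by 0.30 and 0.31 and HDAC5 fell by 0.26. SIRT2, SIRT3, SIRT5 and HDAC11 kept an adjusted p under 0.05 in each of the 12 alternatives run.

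A 7-base string, GAACACA, in 3′ untranslated regions went with lower levels across genes in these libraries, so the members were searched for it in GENCODE 29. Among 1372 genes that hold it the median log2 fold change was -0.23 and 45.2% were called lower, against 0.0072 and 21.3% among 10858 genes without it. The genes that hold it also have longer regions, with a median of 2894 bases against 959. The string was chosen with earlier results of these data known, and lengths were not matched, so these shares are a description and not a test. EP300 and SMARCA4 each have 1 copy, and the other 8 members have none, SIRT1, KAT2B and CTBP1 included. The sites are shown with 10 bases on either side and the string in capitals, and the EP300 copy begins 112 bases and the SMARCA4 copy 249 bases into the region. One of these genes fell and the other was not called, and the part of the string in the result was not tested. The siRNA sequences were not given in the sources used here, so whether the siRNA matches this string, or the messenger RNA of EP300 or any other member, was not tested.
EP300 site: attttccttgGAACACAtaagaactgt
SMARCA4 site: ccgaattgggGAACACAcgatacctgt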

How the data were processed

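Total RNA of 6 SW480 samples was sequenced on Illumina, per the labels and the study's methods. The authors deposited 1 table of whole-number read counts per gene for each sample, not normalized. The submitters' processing notes name Trimmomatic, HISAT2, SAMtools, featureCounts and hg38. Versions, annotation and the strand setting are not given in the sources used here. GENCODE 29 on GRCh38 matched 31059 of the 32029 genes by Ensembl identifier and gave exon lengths and overlaps.

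Genes were kept by filterByExpr, scaled by TMM and tested with edgeR 4.0.16 (glmQLFit and glmQLFTest, two-sided, no covariate, all 6 samples, R 4.3.3), with Benjamini-Hochberg adjustment over 14996 genes. The biological coefficient of variation was 6.58%. Fold changes are siZEB1 over siNC, percent changes were derived from the fitted log2 fold change, and its SE is the log2 fold change over the square root of the F statistic. The script was tested on simulated data. Paralog ratios are log2 of (count + 0.5) over (count + 0.5), compared by exact permutation (scipy 1.17.1). Alternatives were DESeq2 1.42.0, other scaling, other filters, other thresholds, a replicate block and each library left out.

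The genes named are the 10 members, ZEB1, CDH1, the partners in 6 paralog pairs (4 of them not members), MTA1, MTA2 and MTA3, and in each list up to 4 other genes with the largest change among those called whose mean reached 1 CPM and whose groups did not overlap. Other genes named (list genes that complete a small count, and neighbours that share exon bases) were added after their values were seen. The members, the lists and the 7-base string were chosen with earlier results of these data known. The labels do not say from what the replicates were taken; the study's methods call them biological, and p-values measure the spread between these samples.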

Additional observations from a re-analysis of the deposited data

How the results depend on the processing

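HDAC1 and HDAC2 stayed called higher and CTBP1, EP300, KAT2B and SIRT1 called lower under DESeq2, 2 other scalings, 2 other filters, the replicate block and each library left out, and CTBP2, RCOR1 and SMARCA4 were called in none of these 12 alternatives. Replicate numbers did not pair the samples (correlations of same-numbered deviations of -0.05, -0.09 and -0.20), so the block is given here alone: it gave 2289 genes higher and 2679 lower against 2849 and 3186. Under the replicate block KDM1A (adjusted p = 0.0888 by edgeR) and CHD3 (0.078) lost their calls, and the number called lower was 0 for NuRD, 1 for CoREST and 3 for SWI/SNF. The number of SIN3 genes called higher was 9 under DESeq2, median-of-ratios scaling and the filter at 10 counts, 8 with total library size or no filter, 7 to 8 with 1 library left out and 6 under the block. For NuRD the number called higher was 6 to 8 with 1 library left out and 5 under the block. Leaving out 1 library at a time, the number called lower ranged from 0 to 1 for NuRD, from 1 to 2 for CoREST, from 0 to 1 for SIN3 and from 3 to 4 for SWI/SNF. For the acetyltransferase coactivators that range was 5 to 9, and for the deacetylases outside the members 3 to 4. The number for the CtBP partners stayed at 6. A fold above 1.5 with p under 0.05 left 1081 genes higher and 1402 lower, with 0 and 2 members, and p under 0.001 left 678 and 1004, with 0 and 2 members. The log2 fold change of KAT2A, not called, changed sign without siNC 1 or siZEB1 2 (-0.020 to 0.094 over the libraries left out), and that of MTA2, not called, without siZEB1 3 (-0.088 to 0.0047). The cause of these shifts was not tested. With 3 samples in a group the ratio tests cannot pass 0.05, and KAT2B, at 99 to 213 counts, has the widest interval of the members. Protein levels and ZEB1 binding were not analysed here.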
